A study of Mus musculus with 8 samples.

Results

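The Toll-like receptors were followed in mouse peritoneal macrophages that lacked the mineralocorticoid receptor (MR) or kept it, with and without corticosterone. The members were the genes Tlr1, Tlr2, Tlr3, Tlr4, Tlr5, Tlr6, Tlr7, Tlr8, Tlr9 and Tlr13, taken by name, with every probe set that the platform annotation gives to 1 of them alone. That made 10 of 18193 genes and 16 of 45037 probe sets. Tlr4 had 4 probe sets, Tlr7 had 3, Tlr3 had 2 and each other member had 1.

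Toll-like receptors are membrane proteins that bind microbial molecules through a leucine-rich repeat domain outside the cytosol and signal through a cytosolic TIR domain. Those on the cell surface bind lipoproteins, lipopolysaccharide and flagellin, and those in endosomes bind nucleic acids. Most signal through the adaptor MyD88 to NF-kB, and Tlr3 signals through TRIF instead. Macrophages use them to start an inflammatory response, which glucocorticoids are known to restrain.

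Affymetrix arrays were made from 4 groups of 2 samples. Knockout cells carried floxed MR alleles with a LysM Cre (MR fl/fl, LysM cre) and were cultured with corticosterone or without it. Control cells carried the floxed alleles alone (MR fl/fl) and were cultured in the same ways. Corticosterone, the main glucocorticoid of mice, was given at 1 µM for 24 h. All samples were labelled male C57BL6/J, with their age not given, and all mice had received 3% aged thioglycolate 4 days before harvest, so the cells were elicited macrophages kept by adherence in medium with 10% serum. LysM Cre is driven from the lysozyme M locus, which is active in macrophages and neutrophils, and cells that do not express it keep the receptor. Each sample was a pool of triplicate experiments, per the labels. The titles call the 2 samples of a group biological replicates. The p-values rest on how far such pools differ within the groups, as 1 spread shared by all groups. The test also draws this spread towards a trend over all probe sets. The spread may be technical.

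The macrophage genes Lyz2 and Csf1r, which encode lysozyme M and the receptor for macrophage colony stimulating factor, read 13.58 to 13.78 and 13.52 to 13.59 log2 units on the 8 arrays. Nr3c2, which encodes MR, read 5.11 and 5.47 in knockout cells with corticosterone and 5.54 and 5.82 in knockout cells without it, against 6.39 and 6.13 in control cells with corticosterone and 6.39 and 8.46 in control cells without it. Where its probe set lies relative to the deletion is not known here. The array called control untreated replicate 2 stood apart: it correlated with the rest at a median of 0.919, while the other 7 arrays did so at 0.994 to 0.995. The gap between its 3′ and 5′ control probe sets, which widens as RNA breaks, was 2.18 for Actb and 1.84 for Gapdh, against at most 0.62 and 0.79 elsewhere. Its fibroblast markers Col1a1, Col1a2, Col3a1, Dcn and Lum were higher than on any other array, Lum at 8.07 against 4.05 to 4.65 elsewhere. The mesothelial marker Krt18 was lower, at 4.62 against 6.19 to 6.92, and Msln and Upk3b read 3.82 and 5.36, within the range of the other arrays. Values are therefore given from 7 arrays without this one, and from all 8 where the text says so. The array enters only the differences that involve control cells without hormone; the other differences were the same size in both fits, with a different SE.

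That array bore on the receptors themselves. On it 13 of the 16 Toll-like receptor probe sets lay below each of the other 7 arrays, against 41.4% of all probe sets. Its difference from replicate 1 of the same group had a median of -1.09 log2 units over the 16 probe sets and -0.08 over all probe sets. The gaps were unequal within a gene: the 3 probe sets of Tlr7 differed by -0.72, -3.47 and -3.56. Tlr8 differed by -3.38 and Tlr2 by -1.34, while Tlr5 and Tlr9 differed by 0.15 and -0.11. In the other 3 groups no receptor probe set but those of Tlr5, Tlr8 and Tlr4 differed between replicates by over 0.2 log2 units.

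**Figure D1:**
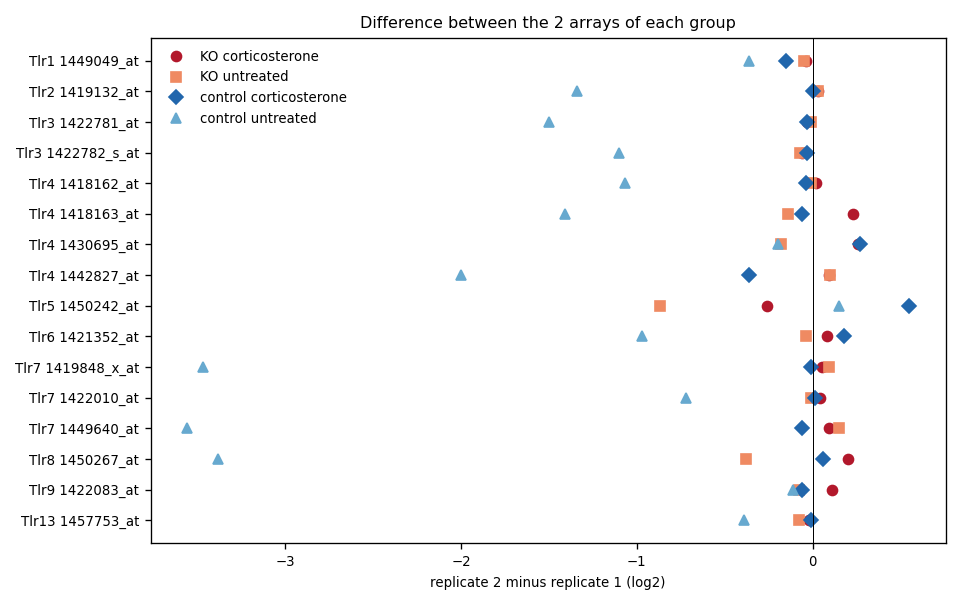
Difference in log2 level between replicate 2 and replicate 1 of each group, for the 16 Toll-like receptor probe sets. The triangles of the control untreated group reach -3.56, while most symbols of the other 3 groups lie near 0.

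Values are RMA levels on a log2 scale, so 1 unit is a factor of 2. They are relative within an array, and no detection call was used. Levels of different probe sets are not comparable as amounts. Brightness served to pick 1 probe set for each gene outside the family, and for Tlr7 in the search for like genes. It also served to drop dim probe sets or keep 1 per gene in alternative settings, and in limma's variance trend. Differences come from limma, fitted on all 45037 probe sets with 1 term per group, and a probe set is called where the Benjamini-Hochberg adjusted p over all of them is under 0.05. With 7 arrays the control untreated group is 1 array, assumed to vary as the other groups do. In bulk samples fewer cells of a type and less RNA per cell cannot be told apart. Where groups are said not to overlap, or all arrays of 1 to lie above another, that is a description only. How many of all probe sets do so was not counted, and some receptor probe sets that were not called did so too.

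For 3 of the members whose levels moved, the stretch from 250 bases before to 50 after the gene start shows the letters that common macrophage factors read. RefSeq's promoter table (GRCm38.p6) held 8 of the 10 members; Tlr4 and Tlr7 had no entry. Tlr13 and Tlr8 are shown because they rose with the hormone in knockout cells, and Tlr2 because it differed between the genotypes. Tlr1, called lower in knockout cells, and Tlr5, called higher in control cells, also had entries but are not shown. Capitals mark matches, on either strand, to a glucocorticoid receptor half-site (AGAACA), an NF-kB site (GGGA and CC with 4 bases between), the core bound by PU.1 (GAGGAA) or an interferon-stimulated response element (GAAA and GAAA with 2 bases between). Each is written 5′ to 3′ on the gene's own strand.
Tlr13, chrX:106143025-106143324, + strand: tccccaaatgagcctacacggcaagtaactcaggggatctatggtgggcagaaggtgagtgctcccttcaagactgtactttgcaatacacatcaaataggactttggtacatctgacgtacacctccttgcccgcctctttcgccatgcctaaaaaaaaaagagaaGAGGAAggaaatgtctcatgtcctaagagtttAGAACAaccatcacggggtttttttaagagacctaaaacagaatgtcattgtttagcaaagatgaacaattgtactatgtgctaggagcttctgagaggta
Tlr8, chrX:167264280-167264579, - strand: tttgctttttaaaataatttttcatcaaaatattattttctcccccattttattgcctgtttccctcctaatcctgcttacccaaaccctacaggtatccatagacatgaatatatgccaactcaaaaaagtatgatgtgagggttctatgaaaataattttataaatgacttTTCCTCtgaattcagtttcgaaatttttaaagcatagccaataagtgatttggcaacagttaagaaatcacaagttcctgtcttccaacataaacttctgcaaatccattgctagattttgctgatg
Tlr2, chr3:83841559-83841858, - strand: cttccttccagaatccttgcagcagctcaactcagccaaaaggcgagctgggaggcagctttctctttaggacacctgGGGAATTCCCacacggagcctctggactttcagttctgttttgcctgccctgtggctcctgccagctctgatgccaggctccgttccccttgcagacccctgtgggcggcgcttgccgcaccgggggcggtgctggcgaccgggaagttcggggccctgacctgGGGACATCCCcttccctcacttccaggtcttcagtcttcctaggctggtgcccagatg

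The Tlr13 stretch held GAGGAA 83 bases and AGAACA 51 bases before the gene start. Tlr8 held GAGGAA 77 bases before it on the opposite strand. Tlr2 held the NF-kB site 172 and 8 bases before the start, each read on both strands. Of 32851 promoters of this length, 19.0% held AGAACA, 20.7% the NF-kB site, 28.3% GAGGAA and 3.44% the interferon-stimulated response element, so these matches are common and are given as a description only. None of the motifs overlapped in the 3 stretches.

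**Figure D2:**
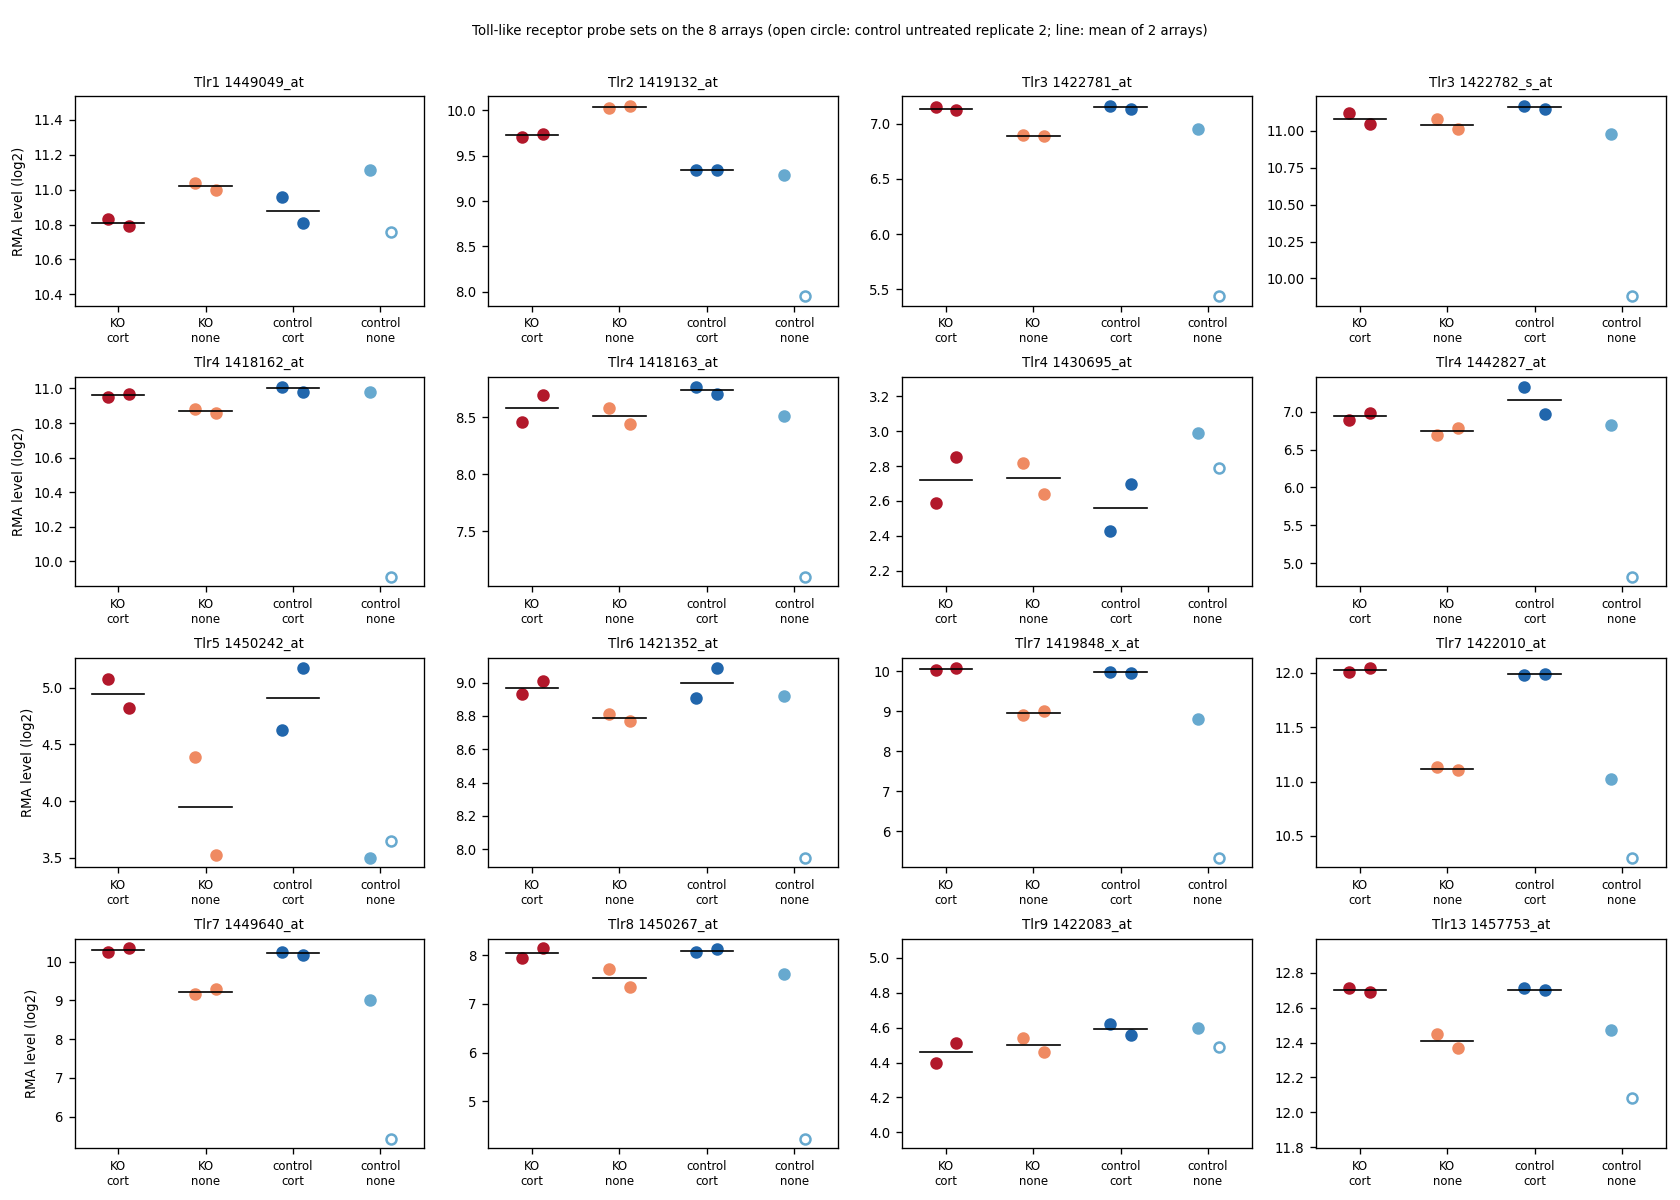
RMA level (log2) of each Toll-like receptor probe set on the 8 arrays, by genotype and hormone; lines are means of 2 arrays, not drawn for control untreated cells, and the open circle is control untreated replicate 2. The 3 Tlr7 probe sets lie higher with corticosterone in both genotypes, and Tlr2 lies higher in knockout than in control cells.

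Corticosterone raised the endosomal receptors Tlr7 and Tlr13 in both genotypes. With 7 arrays 7 of the 16 probe sets were called in knockout cells, 5 higher and 2 lower, against 9.14% of all probe sets (4.33% higher and 4.82% lower), and their median difference was 0.19 against -0.006 over all. In control cells 5 were called, all higher, against 6.79% of all probe sets (3.19% higher and 3.6% lower), with a median of 0.22 against 0.0 over all. With 8 arrays limma called none in either genotype, against 0.0577% and 0.0622% of all probe sets, while 2 and 5 had an unadjusted p under 0.05. From the 4 knockout arrays alone, which do not include the array that stood apart, 6 were called, against 7.01% of all. These counts repeat Tlr7, whose 3 probe sets were all called in each genotype with 7 arrays. Without probe sets of a mean of at most 5.574 log2 units, 7 of 13 were called in knockout cells, against 19.8% of all. With 1 probe set per gene 6 of 10 were, against 13.7%. In control cells the shares over all were likewise larger with these settings.

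Tlr7, the receptor for single-stranded RNA, moved most evenly. Its probe set 1422010_at read 12.01 and 12.05 in knockout cells with corticosterone, against 11.13 and 11.11 without it. In control cells it read 11.98 and 11.99 with corticosterone, against 11.02 and 10.30 without it. Every array with the hormone thus lay above every array without it, in both genotypes. With 7 arrays Tlr7 rose by 0.91 (SE 0.03, limma adjusted p = 1.31e-07, n = 2 per group) in knockout cells, a fold of 1.88. It rose by 0.97 (SE 0.04, adjusted p = 5.13e-07, n = 2 and 1) in control cells, a fold of 1.95. These calls held under every alternative to the fit of 7 arrays, with adjusted p at most 0.00849.

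The other 2 probe sets of Tlr7 share 1 target sequence and are not independent of each other, and the name of 1419848_x_at marks probes that may also bind other transcripts. They showed the same direction. Probe set 1449640_at read 10.25 and 10.34 in knockout cells with corticosterone, against 9.15 and 9.30 without it. In control cells it read 10.25 and 10.18, against 9.0 and 5.44, the last value being that of the array that stood apart. The rise with 7 arrays was 1.07 (SE 0.06, adjusted p = 5.21e-06) in knockout and 1.22 (SE 0.08, adjusted p = 1.36e-05) in control cells. For 1419848_x_at it was 1.10 and 1.16 (adjusted p = 1.76e-06 and 8.01e-06). With 8 arrays the difference in control cells was 1.33 for 1422010_at (SE 0.22, adjusted p = 0.234) but 2.89 and 2.99 for the other 2 (SE 1.02 and 1.04, adjusted p = 0.447 for both). From the 4 knockout arrays alone the rise of 1422010_at passed (adjusted p = 7.66e-06), as did that of 1419848_x_at (5.45e-05) and 1449640_at (0.000102).

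Tlr13, which binds bacterial ribosomal RNA in mouse endosomes, rose less but with little spread. It read 12.71 and 12.69 in knockout cells with corticosterone, against 12.45 and 12.37 without it, and 12.71 and 12.70 in control cells with corticosterone, against 12.47 and 12.08 without it. The groups did not overlap in either genotype. With 7 arrays Tlr13 rose by 0.29 (SE 0.03, adjusted p = 0.000173, n = 2 per group) in knockout and by 0.24 (SE 0.04, adjusted p = 0.00318, n = 2 and 1) in control cells. Without limma's variance trend neither call held (adjusted p = 0.0788 and 0.219). With 8 arrays the differences were 0.29 and 0.43 (adjusted p = 1 and 0.447), and the 4 knockout arrays alone gave adjusted p = 0.00126.

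Tlr8, the relative of Tlr7 among the endosomal receptors, read 7.94 and 8.14 in knockout cells with corticosterone, against 7.72 and 7.34 without it. Control cells read 8.06 and 8.12 with it, against 7.62 and 4.24 without it. Hormone and hormone-free arrays did not overlap within a genotype, but the knockout cells without hormone differed by 0.38 between replicates. The rise in knockout cells with 7 arrays was 0.51 (SE 0.13, adjusted p = 0.0347). The call was lost without knockout corticosterone replicate 1 (adjusted p = 0.0627) or 2 (0.234), without knockout untreated replicate 2 (0.132), without control corticosterone replicate 1 (0.084) or 2 (0.0842), and from the 4 knockout arrays alone (0.0854). In control cells the difference was 0.47 (SE 0.15, adjusted p = 0.12) with 7 arrays and did not pass. It passed there without knockout untreated replicate 1 (adjusted p = 0.0252) or 2 (0.0235). With 8 arrays it was 2.16 (SE 1.00, adjusted p = 0.447).

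Tlr3, the receptor for double-stranded RNA, was not called. Its probe set 1422782_s_at read 11.12 and 11.05 in knockout cells with corticosterone, against 11.08 and 11.01 without it, and 11.17 and 11.15 in control cells with it, against 10.98 and 9.88 without it. The difference with 7 arrays was 0.04 in knockout and 0.18 in control cells (adjusted p = 0.685 and 0.0687). The control difference passed without knockout untreated replicate 1 or 2 (adjusted p = 0.034 and 0.0335). The other probe set, 1422781_at, gave 0.24 and 0.20 (adjusted p = 0.193 and 0.445). With 8 arrays the control differences were 0.73 and 0.95 (adjusted p = 0.447 for both). Tlr9, the receptor for unmethylated CpG DNA, read between 4.40 and 4.62 on all 8 arrays. Its difference with the hormone was -0.04 in knockout cells (95% confidence interval -0.36 to 0.27) and -0.01 in control cells (-0.40 to 0.37) with 7 arrays, and 0.04 in control cells with 8.

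Among the surface receptors, Tlr2 and Tlr1 were lower with corticosterone in knockout cells. With 7 arrays Tlr1 was lower by a like amount in control cells, without a call. Tlr2, which pairs with Tlr1 or Tlr6 to bind bacterial lipopeptides, read 9.71 and 9.74 in knockout cells with corticosterone, against 10.03 and 10.05 without it. In control cells it read 9.34 and 9.34 with the hormone, against 9.29 and 7.95 without it. The groups did not overlap in knockout cells, while both control untreated arrays lay below both control corticosterone arrays. With 7 arrays Tlr2 fell by 0.31 (SE 0.05, adjusted p = 0.00322, n = 2 per group) in knockout cells. In control cells the difference was 0.05 (SE 0.06, adjusted p = 0.771) with 7 arrays and 0.72 (SE 0.41, adjusted p = 0.447) with 8. The fall in knockout cells passed from the 4 knockout arrays alone (adjusted p = 0.0102), but with 7 arrays not without the variance trend (0.0549).

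Tlr1 read 10.83 and 10.79 in knockout cells with corticosterone, against 11.04 and 11.00 without it, and 10.96 and 10.81 in control cells with corticosterone, against 11.11 and 10.76 without it. With 7 arrays Tlr1 fell by 0.21 (SE 0.05, adjusted p = 0.0283) in knockout cells, and the difference in control cells was -0.23 (SE 0.06, adjusted p = 0.0607). The call in knockout cells was lost without knockout corticosterone replicate 1 (adjusted p = 0.1) or 2 (0.188) and without knockout untreated replicate 1 (0.0799). The control difference passed without knockout untreated replicate 1 or 2 (adjusted p = 0.0426 and 0.0422) or control corticosterone replicate 1 (0.0322). With 8 arrays the differences were -0.21 and -0.05 (adjusted p = 1 and 0.836). The knockout call with 7 arrays was also lost without the variance trend and with 5 arrays. Tlr6, the other partner of Tlr2, read 8.93 and 9.01 in knockout cells with corticosterone, against 8.81 and 8.77 without it, and 8.91 and 9.09 in control cells with it, against 8.92 and 7.95 without it. Its differences of 0.18 and 0.08 with 7 arrays did not pass (adjusted p = 0.209 and 0.748), nor did the control difference of 0.57 with 8 arrays (adjusted p = 0.447).

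Tlr4, the receptor for lipopolysaccharide, was not called on any of its 4 probe sets. Probe set 1418162_at read 10.95 and 10.97 in knockout cells with corticosterone, against 10.88 and 10.86 without it. Control cells read 11.01 and 10.98 with it, against 10.98 and 9.91 without it. The difference with 7 arrays was 0.09 in knockout cells (95% confidence interval 0.01 to 0.17, adjusted p = 0.186) and 0.02 in control cells (-0.08 to 0.12, adjusted p = 0.901). The other 3 probe sets gave -0.01 to 0.20 in knockout and -0.43 to 0.33 in control cells. Probe set 1430695_at, at 2.43 to 2.99, differed in sign from the others in control cells. The control differences with 8 arrays were 0.55 for 1418162_at, 0.94 for 1418163_at, 1.33 for 1442827_at and -0.33 for 1430695_at (adjusted p = 0.447 for each). Tlr5, the flagellin receptor, was uneven between replicates. It read 5.08 and 4.82 in knockout cells with corticosterone, against 4.39 and 3.52 without it, and 4.63 and 5.18 in control cells with it, against 3.50 and 3.65 without it. The groups did not overlap in either genotype. With 7 arrays Tlr5 rose by 1.41 (SE 0.34, adjusted p = 0.0383) in control cells, and the difference in knockout cells was 1.00 (SE 0.28, adjusted p = 0.0574). Leaving out either control corticosterone array (adjusted p = 0.065 and 0.221) or either knockout corticosterone array (0.059 and 0.0592) ended the control call. The knockout difference passed without knockout untreated replicate 1 (1.43, adjusted p = 0.00475). With 8 arrays Tlr5 differed by 1.33 in control cells (adjusted p = 0.447).

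**Figure D3:**
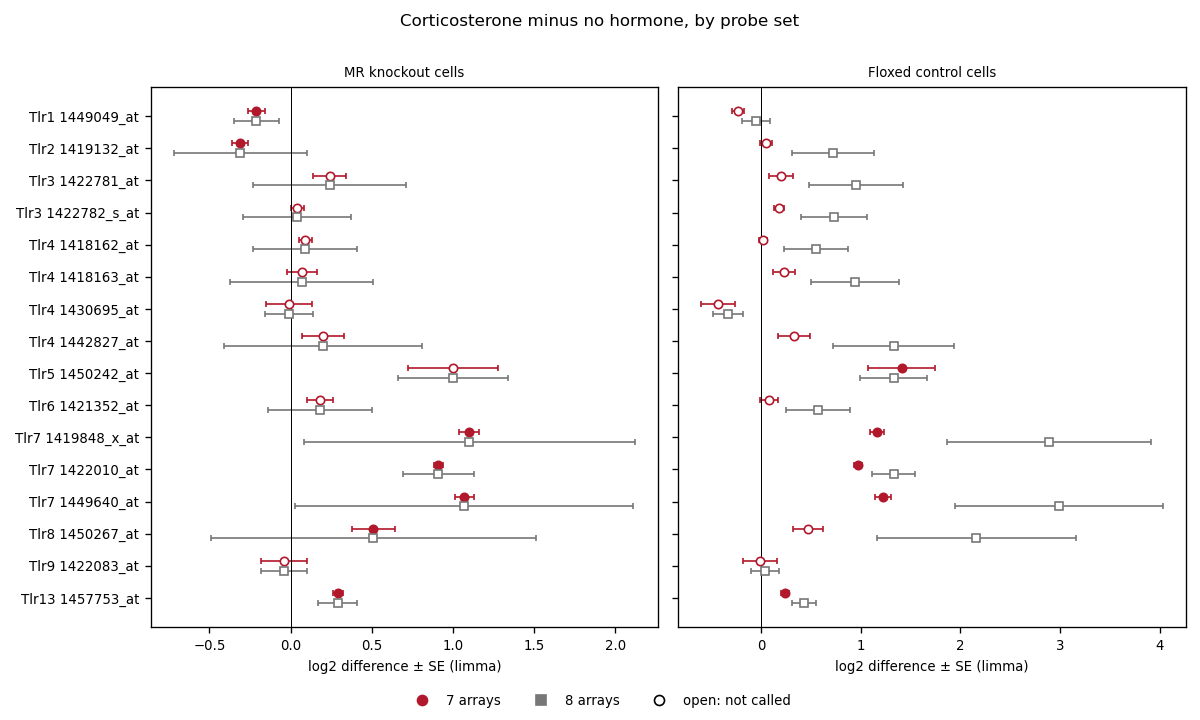
Log2 difference between corticosterone and no hormone with its SE from limma, per probe set, in knockout (left) and control cells (right). Filled symbols are called; the Tlr7 rises with 7 arrays lie between 0.91 and 1.22, and the control differences with 8 arrays reach 2.99.

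Transcripts of other cells in the cultures also moved with the hormone. The 6 measured B cell markers averaged 5.60 and 5.76 in knockout cells with corticosterone, against 6.68 and 6.53 without it, and 5.69 and 5.71 in control cells with it, against 6.44 and 5.84 without it. The 7 T and NK cell markers averaged 4.53 and 4.60 in knockout cells with the hormone, against 5.85 and 5.83 without it, and 4.71 and 4.71 in control cells with it, against 5.73 and 5.81 without it. Over all probe sets 9.14% were called in knockout and 6.79% in control cells. Of the B cell markers 3 fell in knockout and 4 in control cells with 7 arrays, and 4 T and NK cell markers did so in each genotype. B cells also express several Toll-like receptors, and the part of these cells in the falls of Tlr1 and Tlr2 was not tested. The 7 macrophage markers averaged 12.26 and 12.27 in knockout cells with corticosterone, against 12.05 and 12.0 without it, and 12.29 and 12.30 in control cells with it, against 12.03 and 11.57 without it. Of these 3 rose and 1 fell in each genotype with 7 arrays. The part of this shift in the rise of Tlr7 and Tlr13 was not tested. Of the 6 mast cell markers 3 rose in each genotype, and of the 6 conventional dendritic cell markers 3 fell in each, with 1 rising in knockout cells. Mesothelial and fibroblast markers rose at 3 of 9 in knockout cells and at none in control cells. Of the 5 plasmacytoid dendritic cell markers 1 fell in each genotype. Ly6d of that list, which B cells also express, read 7.17 and 7.48 in knockout cells with corticosterone, against 9.78 and 9.70 without it, and 7.33 and 7.37 in control cells with it, against 8.98 and 6.91 without it. Siglech of the same list read 4.41 to 4.94 on all arrays. The part of these cells in the receptors' changes was not tested.

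Between knockout and control cells in the same hormone condition, Tlr2 was the single member called. With 7 arrays 1 of 16 probe sets was called in each condition, against 0.795% of all probe sets with corticosterone (0.619% higher) and 0.977% without it (0.666% higher). The median difference over the 16 was -0.02 and -0.06, against -0.009 and -0.004 over all. With 8 arrays limma called none of the 16 in either condition, against 0.0% of all probe sets; 0 and 1 of the 16 had an unadjusted p under 0.05.

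In the cells without hormone Tlr2 read 10.03 and 10.05 in knockout cells, against 9.29 and 7.95 in control cells. With hormone it read 9.71 and 9.74 in knockout cells, against 9.34 and 9.34 in control cells. All 4 knockout arrays lay above all 4 control arrays. Without hormone Tlr2 rose by 0.75 in knockout cells with 7 arrays (SE 0.06, adjusted p = 0.000317, n = 2 and 1), a fold of 1.69. With corticosterone it rose by 0.39 (SE 0.05, adjusted p = 0.00526, n = 2 per group), a fold of 1.31. The second call was lost when any of the 4 arrays compared was left out: without knockout corticosterone replicate 1 (adjusted p = 0.0675) or 2 (0.0685), or control corticosterone replicate 1 (0.0997) or 2 (0.105). Without the variance trend both calls were lost (adjusted p = 0.0557 without and 0.152 with the hormone). With 8 arrays the differences were 1.42 (SE 0.41, adjusted p = 0.516) without and 0.39 (SE 0.41, adjusted p = 1) with the hormone, and the 4 corticosterone arrays alone gave adjusted p = 0.00369, where 1.23% of all probe sets were called.

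Among the marker lists, B cell markers averaged 6.68 and 6.53 in knockout and 6.44 and 5.84 in control cells without hormone. Neutrophil markers averaged 7.75 and 7.77 in knockout and 7.58 and 7.82 in control cells, and mesothelial and fibroblast markers 7.08 and 7.05 against 7.06 and 8.35. With 7 arrays 1 of 6 B cell markers, none of the 5 neutrophil and none of the 9 mesothelial and fibroblast markers was called between the genotypes without hormone, where 0.977% of all probe sets were. Of the conventional dendritic cell markers 1 of 6 was lower in knockout cells in each hormone condition. Of the plasmacytoid dendritic cell markers 1 of 5 was lower in each condition and 1 was higher without hormone. Their part in the Tlr2 difference was not tested. The other receptor probe sets differed between knockout and control cells by -0.26 to 0.46 without hormone and by -0.22 to 0.16 with it, with 7 arrays, and none passed. Tlr5 had the 0.46 (SE 0.34, adjusted p = 0.657) and Tlr4 1430695_at the -0.26 (adjusted p = 0.593). On the Tlr7 probe sets the differences without hormone were 0.10, 0.15 and 0.22, the last on 1449640_at (adjusted p = 0.276). All 8 arrays gave 0.46 for 1422010_at and 1.89 for 1419848_x_at, with adjusted p = 0.516 for each of the 3. Tlr4 1418162_at differed by -0.11 without hormone (95% confidence interval -0.21 to -0.01, adjusted p = 0.378), turning to 0.43 with 8 arrays (adjusted p = 0.516), and by -0.03 with the hormone (-0.12 to 0.05, adjusted p = 0.898). Tlr13 differed by -0.06 without (-0.14 to 0.02; 0.14 with 8 arrays) and by less than 0.01 with the hormone (-0.07 to 0.06).

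**Figure D4:**
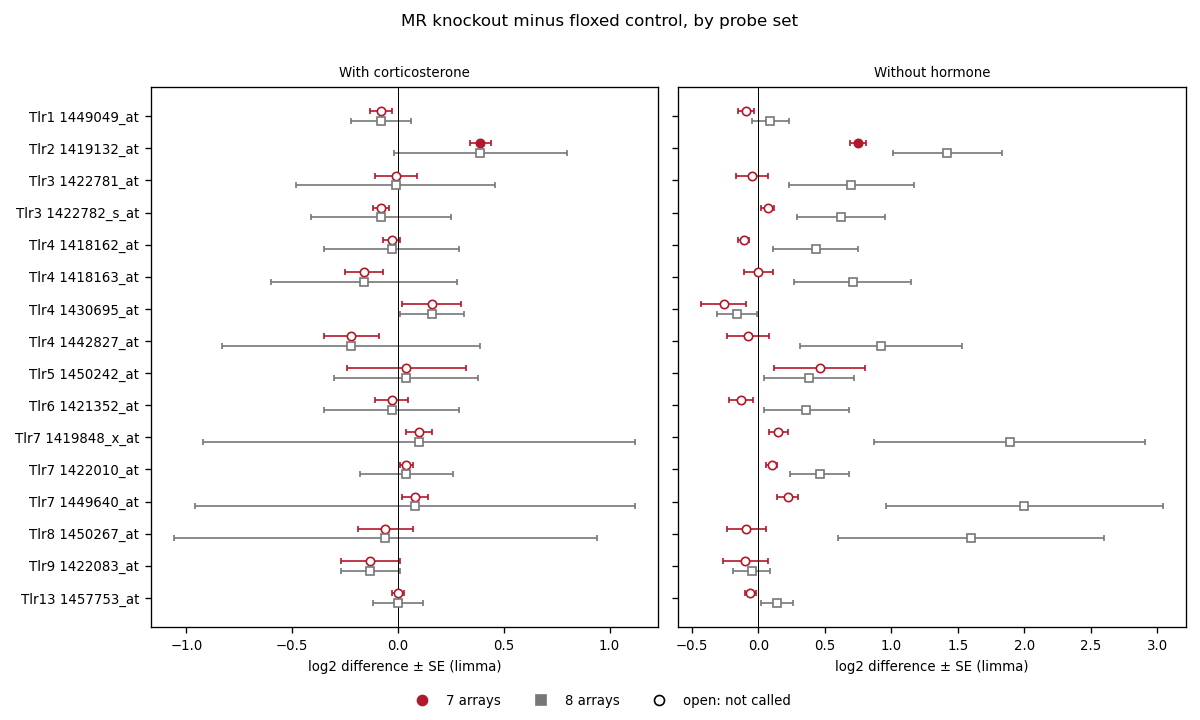
Log2 difference between knockout and control with its SE from limma, per probe set, with corticosterone (left) and without hormone (right). Tlr2, at 0.39 and 0.75 with 7 arrays, is the single filled symbol in each panel.

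Whether MR changes the response to corticosterone was tested as an interaction, the knockout response minus the control response. No receptor probe set was called by limma with 7 arrays, against 0.00888% of all probe sets, or with 8, against 0.0%; 1 and 0 of the 16 had an unadjusted p under 0.05. For Tlr2 the interaction was -0.36 with 7 arrays (SE 0.08, 95% confidence interval -0.54 to -0.18, unadjusted p = 0.00115, adjusted p = 0.743) and -1.03 with 8 (SE 0.57, adjusted p = 0.752). A difference between the genotypes in the hormone response of Tlr2 was therefore not shown after adjustment. With 7 arrays the interaction was -0.06 for Tlr7 1422010_at, -0.06 for 1419848_x_at and -0.14 for 1449640_at, and 0.05 for Tlr13. With 8 arrays it was -0.42 (95% confidence interval -1.19 to 0.35) for 1422010_at and -1.79 (-5.33 to 1.74) for 1419848_x_at. For 1449640_at it was then -1.92 (-5.55 to 1.7) and for Tlr13 -0.14 (-0.57 to 0.29). These wide intervals do not show that the responses of the genotypes are equal.

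Around the receptors, 73 of 82 genes on 4 lists were measured, each by its brightest probe set. The counts below stand against 9.14% of all probe sets called for corticosterone in knockout cells and 6.79% in control cells. With 1 probe set per gene, and p adjusted over genes, 13.7% and 10.8% of 18193 genes were called. Of 37 calls made with 7 arrays on the genes named from these lists, 26 were lost without the variance trend. The 11 that held were those of Tsc22d3, Dusp1 and Irf1 in both genotypes, of Inpp5d, Ccl5, Tnf and Cd40 in knockout cells and of Ccl4 in control cells with the hormone. Of 23 list genes called in control cells with 7 arrays, 5 had the opposite sign with 8: Unc93b1, Irf1, Tnf, Ptgs2 and Atf3. In the list of coreceptors and trafficking proteins, 5 of 16 rose and 2 fell with corticosterone in knockout cells, and 3 rose and 1 fell in control cells, with 7 arrays (9.14% and 6.79% over all). With 8 arrays none was called in either. The 16 include Tlr12, a Toll-like receptor outside the members, which read 4.69 to 5.04 on the 8 arrays. Tlr11, also on this list, was not measured. Cd14, which hands lipopolysaccharide to Tlr4, read 12.98 and 13.00 in knockout cells with corticosterone, against 12.79 and 12.74 without it, and 12.83 and 12.84 in control cells with it, against 12.49 and 11.44 without it. With 7 arrays it rose by 0.23 in knockout and 0.35 in control cells (adjusted p = 0.000276 and 0.000102), and the control difference with 8 was 0.87 (adjusted p = 0.447). Cd14 was also higher in knockout than in control cells, by 0.28 without (adjusted p = 0.00222) and 0.16 with the hormone (adjusted p = 0.0177). The second of these calls was lost when any of the 4 arrays compared was left out. The first rests on a single control array and was lost from only the arrays compared. Both were lost without the variance trend. Unc93b1, the chaperone that carries nucleic acid receptors to endosomes, was lower with the hormone except against the array that stood apart. It read 9.83 and 9.74 in knockout cells with corticosterone, against 10.15 and 10.19 without it, and 9.64 and 9.77 in control cells with it, against 10.10 and 8.70 without it. With 7 arrays it fell by 0.39 in both (adjusted p = 0.00208 and 0.00841), but with 8 the control difference had the opposite sign, 0.31 (adjusted p = 0.678). Both calls were lost without the variance trend (adjusted p = 0.0615 and 0.125), and the control call also without control corticosterone replicate 1 (0.0694). Ly86, the partner of the Tlr4 relative Cd180, rose by 0.28 in knockout and 0.38 in control cells. Lgmn, an endosomal protease, rose by 0.41 and 0.42. In the fit of 8 arrays the control differences were 0.68 for Ly86 and 1.51 for Lgmn (adjusted p = 0.447 for both).

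In the list of adaptors, kinases and transcription factors 2 of 22 rose and 3 fell in knockout cells, and 3 rose and 1 fell in control cells, with 7 arrays (9.14% and 6.79% over all). With 8 arrays none was called. Myd88 read 9.80 and 9.84 in knockout cells with corticosterone, against 9.73 and 9.74 without it, and 9.76 and 9.78 in control cells with it, against 9.71 and 8.32 without it, and was not called. Irf7, a factor that Tlr7 and Tlr9 activate, rose by 0.42 in knockout cells (adjusted p = 0.00812) and 0.57 in control cells (adjusted p = 0.00566) with 7 arrays. These calls were lost without knockout corticosterone replicate 2 (adjusted p = 0.089) and without control corticosterone replicate 1 (0.0515) or 2 (0.0564). The control difference of Irf7 with 8 arrays was 1.18 (adjusted p = 0.447). Pik3ap1, an adaptor that links the receptors to phosphoinositide 3-kinase, fell by 0.30 in knockout and 0.29 in control cells (adjusted p = 0.00108 and 0.0056), and both calls were lost without the variance trend (0.0706 and 0.149). With 8 arrays its control difference was -0.10 (adjusted p = 0.702). Irf5, a factor downstream of MyD88, fell by 0.25 in knockout cells (adjusted p = 0.00626), a call lost without knockout corticosterone replicate 1 (0.0688).

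Of the 15 measured inhibitors of the pathway, 4 rose and 2 fell in knockout cells and 5 rose and 2 fell in control cells with 7 arrays (9.14% and 6.79% over all). This list holds known glucocorticoid targets, chosen with earlier results of these data known. Tsc22d3, the gene of the glucocorticoid-induced protein GILZ, read 11.54 and 11.54 in knockout cells with corticosterone, against 9.95 and 9.87 without it, a rise of 1.63 (adjusted p = 2.18e-08), and it rose by 1.52 in control cells. Dusp1, a phosphatase that switches off MAP kinases, rose by 0.64 in knockout and 0.73 in control cells, and was the single gene of the 4 lists called with 8 arrays (control cells, 0.75, adjusted p = 0.0401). That call with 8 arrays was lost without either array of knockout corticosterone, knockout untreated or control corticosterone (adjusted p = 0.254 to 0.73). Inpp5d, a lipid phosphatase, rose by 0.35 and 0.43, and Nfkbia, the inhibitor of NF-kB, by 0.22 and 0.28. From 8 arrays the control differences were 2.45 for Tsc22d3 (adjusted p = 0.429), 0.77 for Inpp5d (0.447) and 0.01 for Nfkbia (0.973).

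Of the 20 inflammatory targets, 1 rose and 4 fell in knockout cells and 3 rose and 5 fell in control cells with 7 arrays (9.14% and 6.79% over all), and none was called with 8. Tnf read 7.80 and 7.76 in knockout cells with corticosterone, against 8.52 and 8.45 without it, and 7.84 and 7.75 in control cells with it, against 8.39 and 6.77 without it. It fell by 0.71 in knockout cells with 7 arrays (adjusted p = 0.000324). The chemokine gene Ccl5 fell by 1.10, the costimulatory receptor gene Cd40 fell by 0.72 and the transcription factor gene Irf1 fell by 0.59 there. In control cells Irf1 fell by 0.55 and Cd40 fell by 0.45, whereas the chemokine genes Ccl3 and Ccl4 rose by 0.45 and 0.58. With 8 arrays the control difference of Irf1 had the opposite sign, 0.32 (adjusted p = 0.726), and that of Cd40 was -0.01 (0.982), while Ccl3 and Ccl4 differed by 1.24 and 1.68 (0.447 for both). Between genotypes without hormone 3 of the 20 were higher in knockout cells with 7 arrays and none lower, against 0.977% of all probe sets. Ccl4 rose by 0.52 (adjusted p = 0.00858), Cd40 by 0.39 (0.0404) and Ccl5 by 0.77 (0.0457). With 8 arrays these differences were 1.61, 0.83 and 1.49 (adjusted p = 0.516 for each). The Ccl4 call was lost with 5 arrays (adjusted p = 0.0684), without the variance trend (0.171) and from only the arrays compared (0.192). The Ccl5 call was lost without any 1 of the 6 arrays other than control untreated replicate 1 (adjusted p = 0.0596 to 0.0836). The Cd40 call was lost without either array of knockout corticosterone or control corticosterone and without knockout untreated replicate 1 (0.0544 to 0.114).

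**Figure D5:**
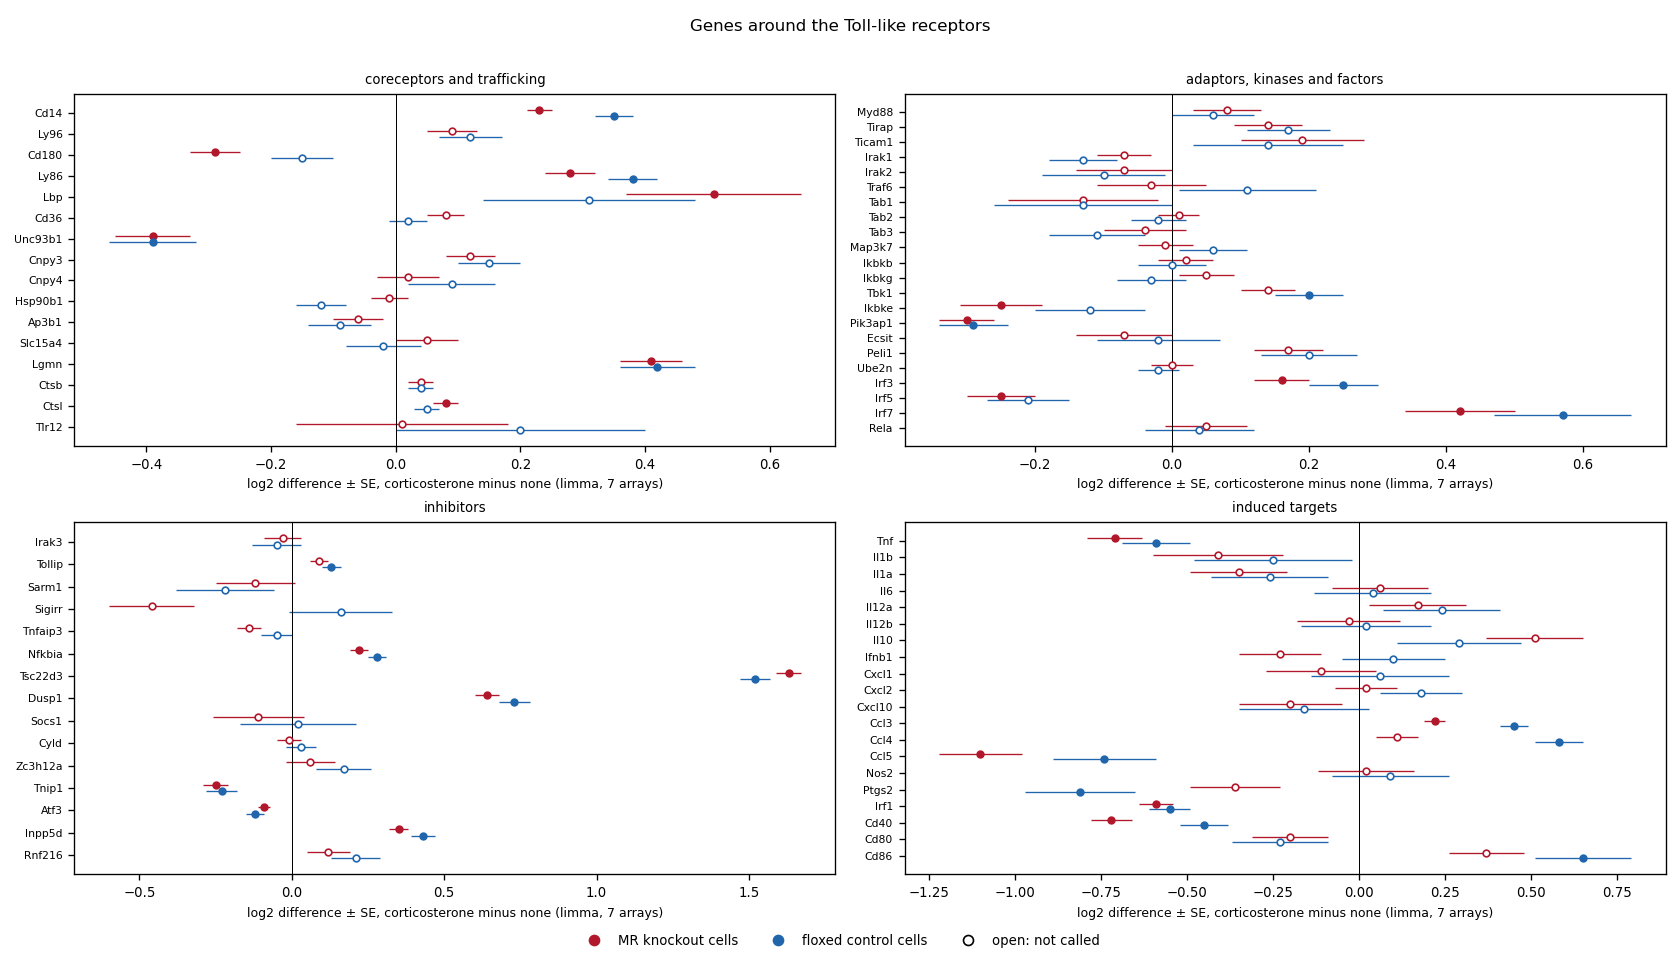
Log2 difference between corticosterone and no hormone with its SE from limma on 7 arrays, for the 73 measured genes of the 4 lists, in knockout (red) and control cells (blue). Filled symbols are called; Tsc22d3, at 1.63 and 1.52, lies farthest from 0.

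The genes most like Tlr7, Tlr2 and Tlr13 were found as the 5 non-member genes with the smallest root mean square difference of centred log2 levels over the 7 arrays, among 18183 genes. For Tlr7, whose own root mean square around its mean was 0.457, these were Ttc39c (0.022), Il6ra (0.034), Frmd4b (0.041), Fbxl4 (0.043) and Cetn4 (0.051). Il6ra, the interleukin 6 receptor gene, read 10.49 and 10.50 in knockout cells with corticosterone, against 9.53 and 9.60 without it. For Tlr13 (0.139) they were Azin1 (0.017), Asah2 (0.021), Cd47 (0.021), Bbx (0.023) and Uso1 (0.024). Tlr2 (0.303) had no neighbour as close: 4930456A14Rik differed by 0.093, Slc12a8 by 0.094, Mcm7 by 0.099, Kazald1 by 0.104 and Gdnf by 0.107. Mcm7, a subunit of the replicative helicase, read 10.40 and 10.34 in knockout cells with corticosterone and 10.61 and 10.72 without it, against 10.04 and 10.16 in control cells with it and 10.16 on control untreated replicate 1.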

How the data were processed

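RNA from 8 samples of mouse peritoneal macrophages was measured on Affymetrix arrays. The deposited values are log2 levels, 1 per probe set and array, made by the authors with RMA in R 2.7, per the submitters' processing notes. RMA equalises the arrays' distributions, so a shift in the whole RNA content of a cell is not seen, and low values are compressed. The platform annotation gives 1 gene for 34958 of 45101 probe sets and several for 932, while 9211 are unnamed here and 64 are array controls; of those with 1 gene, 34754 had it matched to the GRCm38.p6 gene table and 204 kept the annotation's symbol. Scan dates and detection calls were not used here.

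limma 3.58.1 in R 4.3.3 was fitted with 1 term per group, no replicate block and a variance trend, on 8 arrays and on 7 without control untreated replicate 2, for 5 contrasts. Precision is limited by having at most 2 arrays per group. The median SE of 2 against 2 arrays was larger with 8 arrays, at 0.207 log2 units. It was 0.123 with 7, which leave out the array that stood apart. The fit was tested on simulated data, with every array drawn at the spread of the 7 arrays. With 7 arrays it recovered 10% of changes of 0.3 log2 units, 22% of 0.5, 46% of 1 and 96% of 2. With 8 it recovered 4%, 26%, 74% and 98%. No array that stood apart was simulated, so these shares do not describe the fit of the real 8 arrays. Only corticosterone in knockout cells was simulated, with 50 of 45037 probe sets changed at each size. With so few changes the adjusted p is stricter than in the real hormone contrasts. The fits of 7 and 8 arrays had different random draws, so their shares do not compare them. A change that was not called may thus still be present.

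Named are all members and, per contrast and list, up to 4 called genes with the smallest p with 7 arrays and any called with 8. Genes outside the members are read by their brightest probe set. Lyz2, Csf1r, Siglech, Myd88, Nr3c2 and the control probe sets are named as checks. The members and lists were chosen, and the array that stands apart was known, with earlier results of these data known. Alternatives left out single arrays, used 5 arrays, array weights, no variance trend, only the arrays compared, 1 probe set per gene, no dim probe sets (mean of at most 5.574 log2 units), cyclic loess, or a replicate block.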

Additional observations from a re-analysis of the deposited data

Results flagged for a closer look

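For Tlr2 probe set 1419132_at, both knockout arrays with corticosterone lay below both without it, and both control arrays with corticosterone lay above both without it. The responses differed by -1.03 log2 units with 8 arrays (adjusted p = 0.752) and by -0.36 with 7 (adjusted p = 0.743), and neither passed limma's interaction test. Without control untreated replicate 2 the control difference is 0.05.

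For Tlr3 probe set 1422782_s_at, both knockout arrays lay below both control arrays with corticosterone and above both without it. The genotype differences differed by -0.69 with 8 arrays (adjusted p = 0.752) and by -0.14 with 7 (adjusted p = 0.888), which did not pass either. Control untreated replicate 2 read 9.88 there, against 10.98 on replicate 1. Groups of 2 arrays are too small for an outlier test.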

How the results depend on the processing

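Single arrays decided the counts of receptor probe sets called. Without control untreated replicate 2, the 8 arrays' counts of 0 became 7 and 5 of 16 for corticosterone in knockout and control cells, and 1 for each genotype comparison. Without replicate 1 of that group, this group is the apart array only. Each comparison that uses it then called most of all 45037 probe sets, so its receptor counts are not given. Leaving out a single array of another group did not change the receptor counts of the 8 arrays. With array weights 4 were called for corticosterone in knockout cells, against 5.92% of all probe sets. The 4 arrays compared gave 6 for corticosterone in knockout cells, against 7.01%, and 1 for the genotypes with hormone, against 1.23%. With 5 arrays, which further omit 1 knockout array of each treatment (untreated 2, corticosterone 1), the counts were 4 and 6 for corticosterone in knockout and control cells, and 1 and 0 for the genotypes without and with hormone.

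From the 7 arrays, leaving out single arrays gave 5 to 7 for corticosterone in knockout cells and 4 to 8 in control cells, 0 to 1 for the genotypes with hormone, 1 without it and 0 for the interaction. Without the variance trend 3 were called in each genotype with corticosterone, those of Tlr7, and 0 in each genotype comparison. Over all probe sets, calls without the trend numbered 1688 against 4118 with it for corticosterone in knockout cells and 864 against 3057 in control cells, then 100 against 358 and 64 against 440 for the genotypes with and without hormone. For the same 4 comparisons, single arrays left out brought these to as few as 2203, 1551, 136 and 218, and to as many as 549 and 952 for the genotypes. With 5 arrays the counts were 2127 for corticosterone in knockout cells, 165 and 171 for the genotypes. No alternative to the fit of 7 arrays turned the sign of a called change. Bringing back the eighth array turned none of the called receptor changes, but it did turn 5 of 23 list genes called in control cells with corticosterone, among them Unc93b1 (-0.39 with 7 arrays, 0.31 with 8) and Irf1 (-0.55 and 0.32). Array medians moved little, and cyclic loess left the counts at 7 and 5 with 7 arrays. Among 1091 recomputed values of single receptor probe sets with 7 arrays, 31 lost a call and 17 gained one. Only probe sets called in the main fit could lose a call, so 1091 is not the base of the 31. In knockout cells with corticosterone, the Tlr8 call was lost in 9 of 15 alternatives and the Tlr1 call in 5 of 15. The Tlr5 call in control cells was lost in 6 of 13, while no Tlr7 call was lost.

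The replicate block, with 7 arrays, gave 6 and 4 for corticosterone in knockout and control cells. The correlation of the replicate differences between groups ran from -0.23 to 0.32. The highest was that of the untreated groups, and the control one holds the array that stood apart. With a single difference per group, whether same-numbered samples shared a batch cannot be told. The interaction compares every group, so it has no separate fit from only the arrays compared. The control untreated contrasts could not be fitted without both arrays of that group. Signal over background was not tested, so the values of Tlr5, Tlr9 and Tlr4 1430695_at have no detection call.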
